A study of Mus musculus with 2 samples.

Results

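The genes described here are the mouse zinc finger genes whose symbol is Zfp followed by a number from 900 to 999. Every feature with such a symbol is a member, 67 of the 55415 in the count tables; no measured value enters this rule, but the range of symbols was taken up with earlier results of these data known. Of these, 63 had at least 50 UMIs (unique molecular identifiers, counted as molecules) over both libraries and are described in values. The remaining 4 fell under that minimum: Zfp965 and Zfp969 had 0 UMIs in both libraries, Zfp957 had 2 and Zfp996 had 16. The member just inside the minimum was Zfp967, with 40 UMIs in one library and 25 in the other.

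Most genes of this family encode KRAB zinc finger proteins. In such a protein an array of C2H2 zinc fingers binds a DNA sequence, and the KRAB domain recruits the corepressor TRIM28 (KAP1), which brings the histone methyltransferase SETDB1 and heterochromatin proteins. The family expands rapidly in evolution by local duplication, and many members are known for silencing endogenous retroviruses and other transposable elements in embryonic stem cells. The cluster on distal chromosome 4 is a young, rodent-specific part of the family, and Zfp932 is a known repressor of endogenous retroviruses of the ERVK class.

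The cells were mouse embryonic stem cells (mESC) carrying a GFP reporter of MERVL, the endogenous retrovirus that is active in the 2-cell embryo and in the rare 2-cell-like (2C-like) cells of mESC cultures. There was 1 library of MERVL-GFP positive cells and 1 of MERVL-GFP negative cells, with no treatment, time point or further genotype given for either, and how the cells were separated is not described. The files do not say which mESC clone was used, what passage it had or whether either library pooled several cultures. The library label and the batch label are the same words, so the reporter group and the library batch cannot be told apart. With 1 library in each group no test between groups was possible, and every interval below is an exact 95% interval that covers counting error only.

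After filtering there were 4596 positive and 3832 negative cells, with a median of 29554.5 and 39099.5 UMIs per cell, and the libraries shared 3 barcodes. GFP stood at 204.6 CPM (UMIs per 1000000 UMIs of all genes) in positive and 0.454 CPM in negative cells. The summed level of 18 pluripotency genes was 15991 and 15220 CPM, and none of them was at 0 in either library; 1 of them, Dppa5a, gave 11499 and 10359 CPM of these sums, and 7 of the 18 had a ratio above 1 (median log2 ratio -0.17). The summed level of 22 genes of the 2C-like state was 989 and 207 CPM; 1 of them, Eif1a, gave 204 CPM of the negative library's sum, and 4 others were at 0 there. The summed level of a list of 16 primitive endoderm and basement membrane genes was 1104 CPM in the positive and 466 CPM in the negative cells, with Gata6 at 60.7 and 42.2 CPM. A list of 10 trophoblast genes summed to 114 against 69.9 CPM, and 5 of the 9 with at least 50 UMIs were at least 2-fold higher and 1 lower in the positive library (median log2 ratio 1.15). A list of 10 fibroblast genes summed to 439 against 391 CPM, nearly all of it from Vim (214.9 and 211.3 CPM) and Fn1 (202.1 and 171.7 CPM). Of the 7 fibroblast genes with at least 50 UMIs, 3 were at least 2-fold higher and 0 lower (Col1a2, Thy1 and Col1a1; median log2 ratio 0.997), each under 10 CPM. The part of these other markers in the differences below was not tested, apart from the values without cells holding endoderm UMIs that are given beside the comparisons.

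All 67 members were found by identifier in the GENCODE M21 annotation of GRCm38 (mm10), and most lay in local groups, taken here as members of 1 chromosome with gaps of at most 2 Mb and at least 3 members. The Zfp990 group on chromosome 4 (145510759 to 147848366) holds 16 members, the Zfp948 group on chromosome 17 (21567008 to 22867134) and the Zfp968 group on chromosome 2 (175372436 to 178078476) hold 10 each. The Zfp977 group on chromosome 7 (42579783 to 43192109) holds 4, and the Zfp997 group on chromosome 13 (66119547 to 67360605) and the Zfp930 group on chromosome 8 (69209038 to 69749970) hold 3 each; 21 members lay outside such groups. Of 65 members with an annotated coding sequence, 63 encode at least 1 C2H2 zinc finger, with a median of 11 fingers. A stretch typical of the KRAB A box (leucine, 3 residues, glutamine, 2 residues, leucine, tyrosine, within the first 130 codons) was found in 61 of the 65 and was not found in Zfp956, Zfp957, Zfp974 and Zfp997. Zfp939 and Zfp996 are annotated as pseudogenes.

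Promoter sequences are shown for 5 members whose levels run in different ways: Zfp977 and its chromosome 7 neighbour Zfp975, Zfp931 of the chromosome 2 group, Zfp946 of the chromosome 17 group and the isolated Zfp949. Zfp977, Zfp946 and Zfp949 were at least 2-fold higher in the positive library, while Zfp975 and Zfp931 were within 1.1-fold. Each is 300 bases from RefSeq (GRCm38.p6), 250 before and 50 from the start site, 5′ to 3′ on the gene's strand. The windows are chr7:42592496-42592795 (minus strand) for Zfp977, chr7:42692669-42692968 (minus) for Zfp975, chr2:178078376-178078675 (minus) for Zfp931, chr17:22423952-22424251 (plus) for Zfp946 and chr9:88547770-88548069 (plus) for Zfp949. Capitals mark 3 motifs: CCAAT, which reads ATTGG on the other strand; the palindrome CACGTG; and the longer CCAGTCAGA.
Zfp977: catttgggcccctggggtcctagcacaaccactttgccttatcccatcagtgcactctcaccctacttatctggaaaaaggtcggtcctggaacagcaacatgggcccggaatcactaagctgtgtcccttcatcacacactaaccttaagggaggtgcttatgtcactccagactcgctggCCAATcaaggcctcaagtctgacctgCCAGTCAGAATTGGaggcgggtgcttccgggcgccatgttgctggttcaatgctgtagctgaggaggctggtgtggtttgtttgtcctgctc
Zfp975: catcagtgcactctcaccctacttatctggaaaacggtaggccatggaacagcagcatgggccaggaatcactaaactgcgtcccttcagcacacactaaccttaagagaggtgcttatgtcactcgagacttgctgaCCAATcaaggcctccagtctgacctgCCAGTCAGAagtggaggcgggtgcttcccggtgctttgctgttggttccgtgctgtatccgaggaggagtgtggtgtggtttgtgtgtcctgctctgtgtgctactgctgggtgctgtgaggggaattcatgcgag
Zfp931: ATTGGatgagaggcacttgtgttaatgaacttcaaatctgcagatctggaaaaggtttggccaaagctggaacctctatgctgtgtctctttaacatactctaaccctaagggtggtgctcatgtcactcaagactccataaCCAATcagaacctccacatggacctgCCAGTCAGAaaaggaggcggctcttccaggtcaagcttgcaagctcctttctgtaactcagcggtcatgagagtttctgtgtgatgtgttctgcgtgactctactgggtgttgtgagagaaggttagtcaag
Zfp946: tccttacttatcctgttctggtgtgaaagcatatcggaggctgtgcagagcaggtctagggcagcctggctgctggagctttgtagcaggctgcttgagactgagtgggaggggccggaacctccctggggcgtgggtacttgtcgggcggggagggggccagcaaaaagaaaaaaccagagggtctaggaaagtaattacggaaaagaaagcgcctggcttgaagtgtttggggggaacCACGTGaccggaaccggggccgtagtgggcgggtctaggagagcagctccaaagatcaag
Zfp949: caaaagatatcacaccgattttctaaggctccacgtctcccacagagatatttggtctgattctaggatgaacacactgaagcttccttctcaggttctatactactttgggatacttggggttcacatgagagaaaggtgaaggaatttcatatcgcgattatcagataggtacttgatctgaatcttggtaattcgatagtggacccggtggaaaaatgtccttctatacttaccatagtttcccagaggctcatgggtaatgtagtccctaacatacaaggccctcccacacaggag

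In a gapped alignment Zfp977 and Zfp975 share 229 of 300 bases (76.3%), and Zfp975 and Zfp931 share 200 (66.7%); unrelated pairs among the 5, such as Zfp946 and Zfp949, share 146. Both chromosome 7 windows and that of Zfp931 hold CCAAT and CCAGTCAGA close to the start site. The window of Zfp946 holds CACGTG instead, and that of Zfp949 holds none of these motifs. RefSeq promoters were matched for 55 of the 67 members (63 promoters). CCAAT was present on either strand in 77.8% of these promoters, against 37.4% of 32851 RefSeq promoters of the same length. CCAGTCAGA was present in 30.2% against 0.615%, in 17 members that include Zfp936, Zfp950, Zfp961, Zfp968, Zfp975 and Zfp977. CACGTG, the E-box palindrome, was present in 11.1% against 7.15%; 6 of its 7 members are in the chromosome 17 group (Zfp942, Zfp943, Zfp944, Zfp946, Zfp947 and Zfp994) and the seventh is Zfp933. TATAAA was found in 0 of 63 member promoters against 13.6% of all. TGCACAC, letters of a motif reported for ZSCAN4, was found in 1 member promoter, that of Zfp982 (1.59% against 4.40%). TAATCTAAT, letters of a motif of the DUX family, was found in 0 (against 0.113%). Other forms of the DUX site, the one preferred by mouse DUX among them, were not searched. No motif contains another, the motifs were chosen with the sequences in view, and promoters made by duplication are not independent.

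The members together made up 1345 CPM of the positive library (95% interval 1338 to 1351) and 1078 CPM of the negative library (1073 to 1083). Of the 67, 28 reached 10 CPM in at least 1 library and 56 reached 1 CPM. The 5 members with the highest summed CPM were Zfp990, Zfp979, Zfp992, Zfp961 and Zfp982. Zfp990, a chromosome 4 member with 13 fingers, stood at 249.8 CPM in positive and 220.6 CPM in negative cells, and alone gave 18.6% and 20.5% of the members' UMIs.

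Zfp979 stood at 91.7 and 88.1 CPM, Zfp992 at 91.2 and 83.4 CPM, Zfp961 at 81.9 and 78.0 CPM, and Zfp982 at 71.7 and 71.0 CPM in the positive and the negative library. These 5 differed between the libraries by less than 1.2-fold; in the positive library alone Zfp936 (75.6 CPM) stood above Zfp982. UMIs are not divided by transcript length; per kilobase of the longest annotated transcript the positive-library levels of Zfp990 (82.1 CPM per kb) and Zfp982 (48.2 CPM per kb) came before those of Zfp978 (37.0), Zfp979 (35.3) and Zfp961 (30.2).

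**Figure D1:**
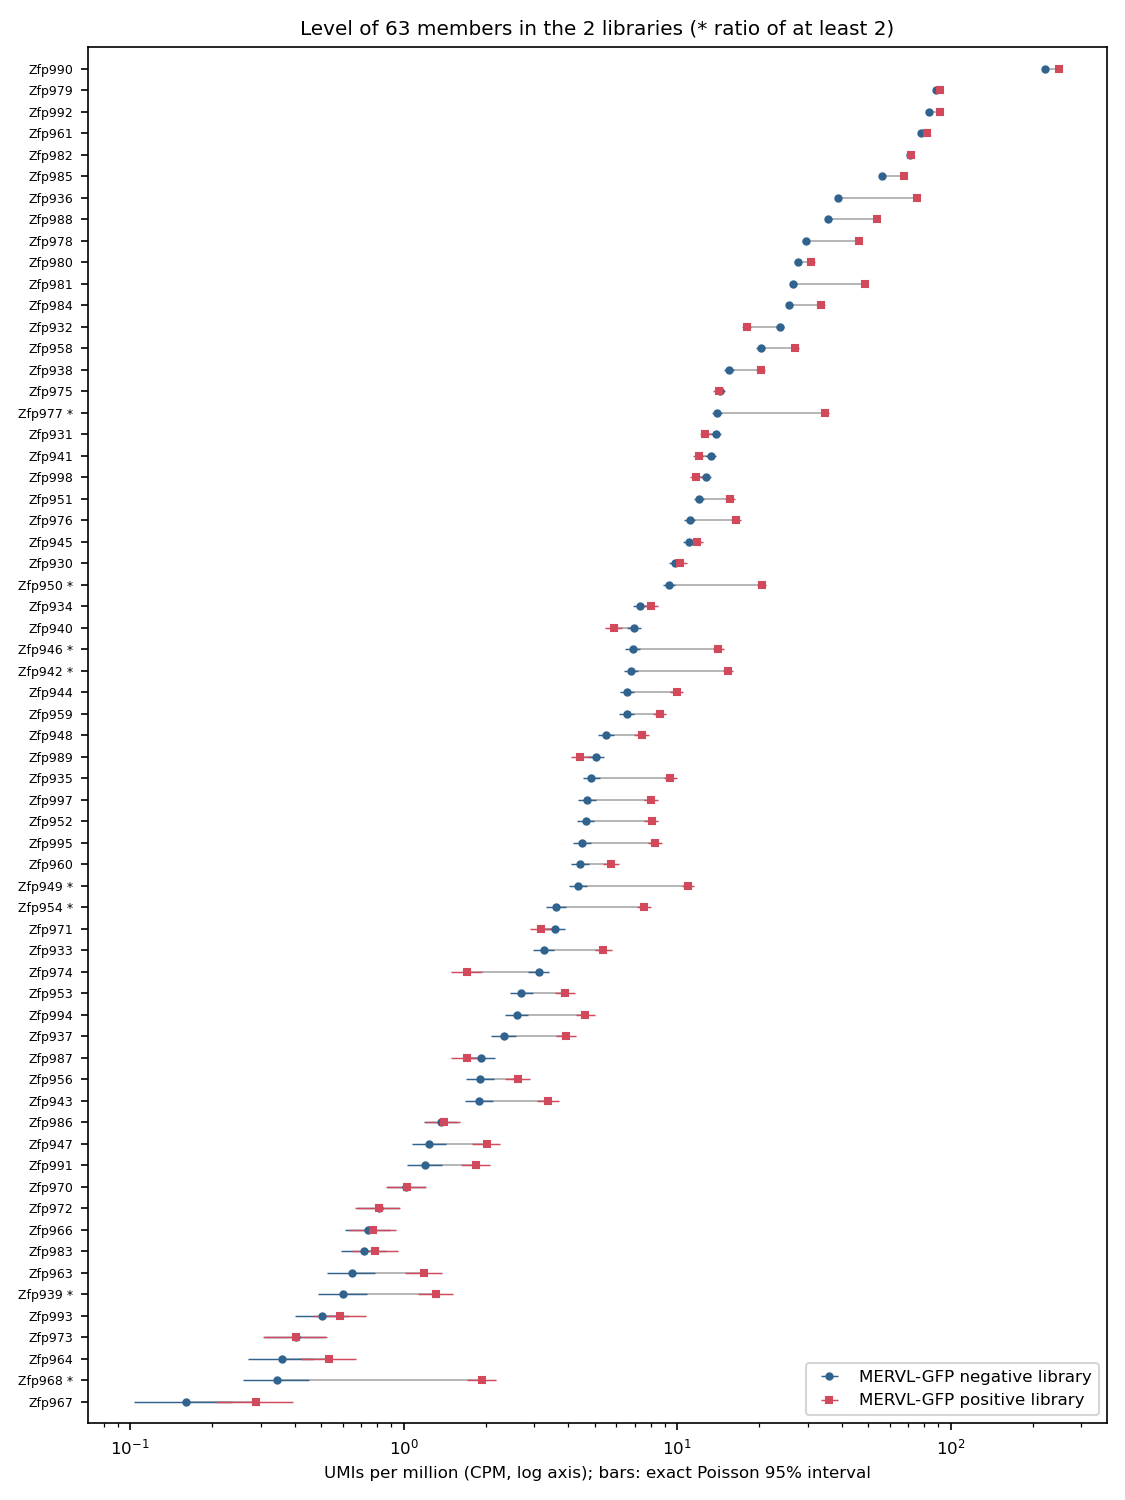
Level of each of the 63 members with at least 50 UMIs in both libraries, in CPM on a log axis; squares are the MERVL-GFP positive library, circles the negative library, bars the exact Poisson 95% interval of the count, and a star marks a ratio of at least 2. The 5 members with the highest summed CPM differ by less than 1.2-fold, and the 8 starred members lie at 34.8 CPM or below.

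The first comparison set the positive library against the negative library. A member was counted as higher or lower when its CPM differed by at least 2-fold, and 8 of 63 members were higher and 0 lower. The same rule counted 18.3% of 19341 features as higher and 2.48% as lower. The members' 12.7% higher thus lay below the share of all features. This order was reversed by the mean of each cell's CPM, at 1.5-fold and with 1 added to each CPM, as given further on. It held under the other settings computed. Without cells that held at least 3 thinned UMIs of 6 endoderm regulators, 8 of 63 members were higher, with a median log2 ratio of 0.41, against 18.7% of features. Without cells that held at least 5 thinned UMIs of the endoderm list, which left 2374 and 3357 cells, it was 8 of 62 with a median of 0.43, against 16.3%. The median log2 ratio of the members was 0.40, against 0.26 over all features and 0.27 over 295 other numbered Zfp genes, of which 28 were higher and 2 lower. The ratio was above 1 for 52 of the 63 members (82.5%, against 67.6% of features). Its counting interval lay wholly above 1 for 44 (69.8%, against 55.6% of features), wholly below 1 for 7 (11.1%, against 22.8%) and across 1 for 12.

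Zfp968, a chromosome 2 member, had the highest ratio: 1.93 CPM (267 UMIs) against 0.345 CPM (54 UMIs), 5.59-fold (4.16 to 7.64). All of its 50-base words also occur in other annotated genes, Zfp966 among them, so its reads cannot be told from those of its copies and its value is uncertain. Zfp966 itself stood at 0.774 and 0.742 CPM.

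Zfp949, an isolated member on chromosome 9 with no 50-base word in another gene, stood at 10.9 and 4.35 CPM, 2.51-fold higher (2.30 to 2.76). Zfp977 stood at 34.8 and 14.03 CPM, 2.48-fold higher (2.36 to 2.61). Of the 8 it had the most UMIs, 4811 and 2195.

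Zfp942 (15.3 and 6.77 CPM, 2.26-fold) and Zfp946 (14.2 and 6.87 CPM, 2.06-fold) both lie in the chromosome 17 group. Zfp950 stood at 20.4 and 9.32 CPM (2.19-fold); it overlaps Grk5 on the other strand, and whether the authors counted by strand is not given. The pseudogene Zfp939 stood at 1.32 and 0.601 CPM (2.19-fold, 1.70 to 2.84), and Zfp954 at 7.58 and 3.61 CPM (2.10-fold, 1.90 to 2.33). Among the other members past 2-fold or just short of it in the first 2 comparisons, Zfp974 and Zfp978 also overlap a gene on the other strand (Gm26891 and C230088H06Rik), and Zfp949, Zfp963, Zfp978 and Zfp983 overlap at least 1 on their own strand. Zfp936 fell just short of the rule, at 75.6 and 38.8 CPM (1.95-fold).

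Zfp974, which has 21 fingers and no KRAB A box stretch, had the lowest ratio, at 1.71 CPM (236 UMIs) against 3.12 CPM (488 UMIs), 0.547-fold (0.466 to 0.640). Zfp932, the ERVK repressor named above, stood at 18.0 and 23.8 CPM, a log2 ratio of -0.41. Zfp975 stood at 14.2 and 14.3 CPM and Zfp931 at 12.7 and 13.9 CPM, so that the promoters printed above that share CCAGTCAGA belong to members with a 2.48-fold ratio and to members with nearly equal levels.

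The scaling decided how many members passed. TMM (trimmed mean of M values) scaling lowers every log2 ratio of this comparison by 0.29 and median-of-ratios scaling by 0.25, which brings the median of all features from 0.26 to -0.03 and 0.01. Relative to either, 3 members were higher (Zfp968, Zfp949 and Zfp977) and 1 lower (Zfp974), so that 3 of 4 calls were higher in place of 8 of 8. Over all features 13.2% were higher and 5.68% lower with TMM, and 13.8% and 5.10% with the median of ratios. The summed level of all members, at a log2 ratio of 0.32 on CPM, came to 0.02 with TMM and to 0.07 with the median of ratios. With each cell's own CPM averaged in place of summed UMIs, 13 members were higher (20.6%), above the 19.1% of features. At 1.5-fold in place of 2-fold the members' 39.7% also lay above the 31.8% of features, and with 1 added to each CPM their 7.94% lay above 6.43%.

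The second comparison was made within the positive library, over cells ordered by their Zscan4 level. Zscan4 genes mark the 2C-like state and act at telomeres. Every cell was thinned to 10000 UMIs, and the UMIs of 9 Zscan4 genes and pseudogenes in the thinned cell put it into 1 of 4 classes: 0 (1438 cells), 1 to 4 (1860), 5 to 14 (609) and 15 or more (495). The 194 positive-library cells under 10000 UMIs could not be classed. In the negative library 13 of 3824 thinned cells had a Zscan4 UMI.

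The members' summed level was 1226 CPM in Zscan4-0 cells, 1335 CPM at 1 to 4, 1494 CPM at 5 to 14 and 1626 CPM at 15 or more, and the Poisson intervals of the classes did not overlap. In cells thinned to equal depth the median was 12, 13, 15 and 16 member UMIs per 10000 over the classes, and 10 in the negative library. The median number of different members detected in a thinned cell was 9, 9, 10 and 11, and 8 in the negative library. The middle 50% of the cells held 9 to 15, 9 to 16, 11 to 18 and 12 to 19 member UMIs over the classes and 8 to 13 in the negative library, so the whole range moved and not a few cells with very many.

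Depth moved with the classes. The mean UMIs per cell fell from 33886 in Zscan4-0 cells to 32206, 28005 and 22172, so that the unthinned member UMIs per cell were 41.6, 43.0, 41.8 and 36.1. The members therefore held a larger share of a smaller total of recovered UMIs. Their recovered UMIs per cell were not more numerous in the top class. Whether those cells held fewer molecules or fewer were recovered from them was not tested. The median mitochondrial share was 2.35, 2.45, 2.77 and 3.21% over the classes. The pluripotency list summed to 17201, 16800, 14172 and 9790 CPM, and the endoderm list to 1187, 1113, 1075 and 695 CPM, so both lists were lowest in the top class; the part of depth, of the mitochondrial share and of these lists was not tested.

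**Figure D2:**
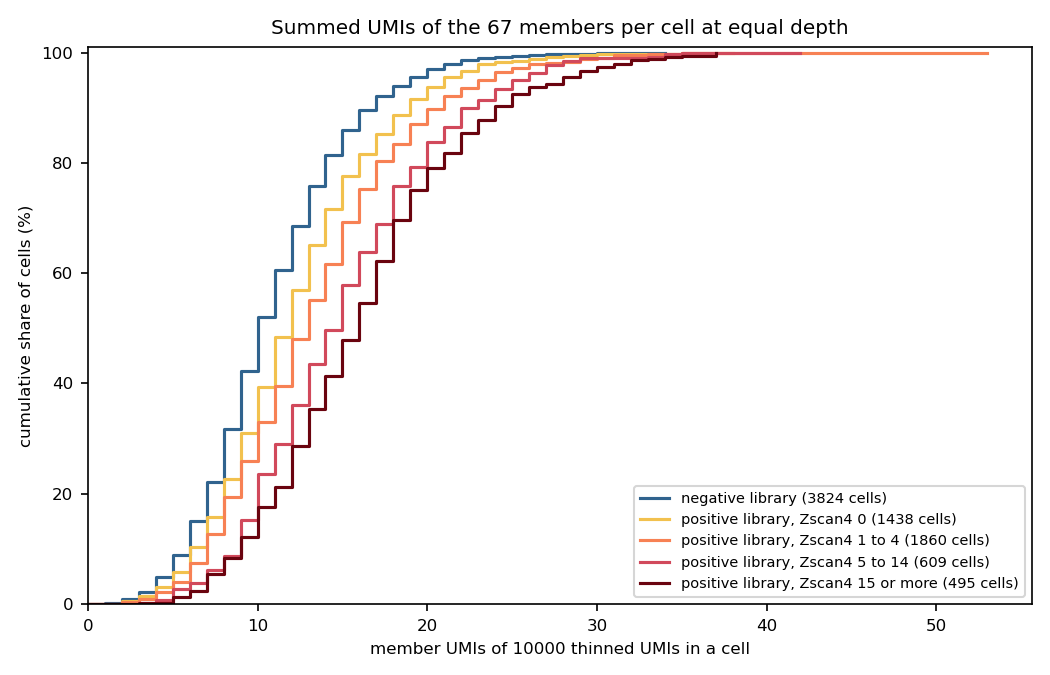
Cumulative share of cells, in percent, against the summed UMIs of the 67 members in a cell thinned to 10000 UMIs, for the negative library and the 4 Zscan4 classes of the positive library. The curves stand apart along their whole middle range, with medians of 10, 12, 13, 15 and 16.

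Zscan4-high cells, with at least 5 thinned Zscan4 UMIs (1104 cells), were set against Zscan4-0 cells. Of 59 members with at least 50 UMIs over both sides, 9 were at least 2-fold higher and 1 was at least 2-fold lower. Over 15628 features the shares were 9.48% higher and 6.23% lower, so the members' 15.3% higher and 1.69% lower stood above and below these. The median log2 ratio was 0.27 for the members, -0.08 for all features and 0.15 for 278 other numbered Zfp genes, of which 26 were higher and 12 lower. The ratio was above 1 for 44 members (74.6%, against 43.5% of features). Its interval lay wholly above 1 for 33 (55.9%, against 28.5%), wholly below 1 for 5 (8.47%, against 38.0%) and across 1 for 21.

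Zfp968 stood at 0.985, 1.69, 3.58 and 5.01 CPM over the 4 classes, 4.20-fold higher in Zscan4-high than in Zscan4-0 cells (2.98 to 6.01), with the same doubt about shared sequence. Zfp997, on chromosome 13, stood at 5.52, 6.14, 9.15 and 26.1 CPM, 2.86-fold higher (2.45 to 3.34). Most of the difference of Zfp997 came in the top class, and 60.3% of its 50-base words occur in other genes.

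Zfp977 stood at 23.3, 31.7, 57.6 and 65.5 CPM, 2.60-fold higher (2.41 to 2.81). In thinned cells at least 1 Zfp977 UMI was found in 19.7, 25.1, 39.7 and 47.7% of the cells of the 4 classes, and in 13.0% of negative-library cells; no cell type here is known to lack the gene, so no background share can be set beside these. Without thinning the shares were 48.3, 55.6, 70.0 and 71.1%, and 39.9% in the negative library, at median depths of 33146.5, 31202, 25789 and 20304 UMIs in the classes and 39129 in the negative library.

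Zfp936, in the same chromosome 7 group, stood at 57.2, 70.5, 117.9 and 115.0 CPM, 2.04-fold higher (1.94 to 2.15). Like Zfp977, it made its largest step between the class of 1 to 4 and the class of 5 to 14. Their neighbour Zfp975, whose promoter is the one most like that of Zfp977 among those printed, stood at 14.3, 13.8, 14.8 and 14.03 CPM, with a ratio of 1.01 (0.894 to 1.15).

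Zfp954 stood at 5.38, 6.56, 11.4 and 16.2 CPM (2.47-fold, 2.10 to 2.90) and Zfp949 at 8.21, 9.72, 13.3 and 24.8 CPM (2.17-fold, 1.90 to 2.48). These 2 members share almost no sequence with other genes, 1.96% and 0% of their 50-base words. Zfp963 (0.800, 1.20, 2.11 and 1.37 CPM, 2.27-fold, 1.47 to 3.54), Zfp939 (1.09, 1.05, 1.52 and 3.46 CPM, 2.10-fold, 1.44 to 3.08) and Zfp983 (0.513, 0.901, 0.879 and 1.28 CPM, 2.02-fold, 1.14 to 3.59) were counted as higher from 25 to 64 UMIs a side, and their intervals were wide. Zfp978, a chromosome 4 member with 3 fingers, fell just short of the rule at 35.6, 42.0, 53.5 and 97.4 CPM (1.98-fold).

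Zfp974 was the member counted as lower, at 2.03, 1.77, 0.938 and 0.638 CPM over the classes, 0.404-fold (0.245 to 0.641), from 99 UMIs in Zscan4-0 and 23 in Zscan4-high cells. It was also the member with the lowest ratio between the libraries. Zfp961, one of the 5 with the highest summed CPM, ran the same way by a smaller amount, at 87.0, 83.1, 72.6 and 67.3 CPM.

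**Figure D3:**
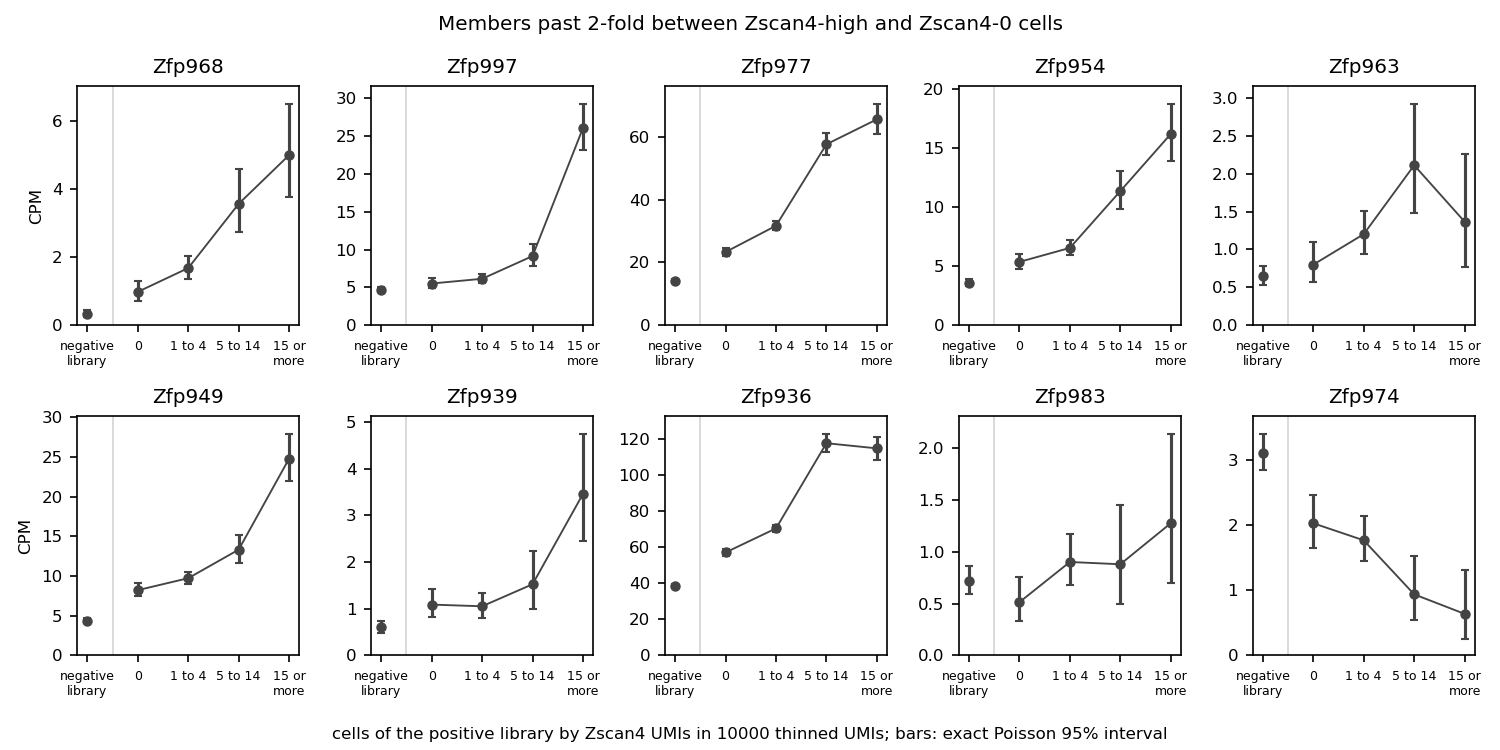
CPM of the 10 members past 2-fold between Zscan4-high and Zscan4-0 cells, in the negative library (left of the line) and in the 4 Zscan4 classes of the positive library; bars are exact Poisson 95% intervals. Zfp977 and Zfp936 step up at 5 to 14 thinned Zscan4 UMIs, Zfp997 in the top class, and Zfp974 declines over all 4 classes.

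Of 62 members with at least 50 UMIs over the 4 classes, 23 rose in CPM at every step from class to class (37.1%), against 20.9% of 17415 features and 86 of 292 other numbered Zfp genes (29.5%). Only 4 fell at every step, Zfp953, Zfp961, Zfp973 and Zfp974 (6.45%), against 26.5% of features and 19.2% of the other Zfp genes. Among the 23 were Zfp990, Zfp977, Zfp949, Zfp946, Zfp942 and Zfp950. Steps of low members can be set by counting error, since no interval was asked of a step.

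The second comparison depends on how the state of a cell is read. With at least 2 thinned Zscan4 UMIs as Zscan4-high, 3 of 61 members were higher (4.92%), below the 7.17% of all features under the same limit. With at least 15 it was 14 of 56, a share above the 11.1% of features. With GFP UMIs in place of Zscan4 (at least 1 against 0 in the thinned cell), 0 of 62 members were higher and 0 lower, against 4.27% and 1.27% of features, with a median log2 ratio of 0.15 against -0.07 over all features; GFP stood at 110, 186, 367 and 462 CPM over the Zscan4 classes. Without cells that held at least 3 thinned UMIs of 6 endoderm regulators, 10 of 57 members were higher and 1 lower, against 9.62% and 6.43% of features. Zfp983 was not among the 10: it stood at 1.67-fold without those cells, and at 1.9991-fold by the mean of each cell's CPM.

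Summed by genomic group, the chromosome 4 group held 59.5% of the members' UMIs among positive cells and 62.8% among negative cells. Its summed level was 800.0 against 677.6 CPM between the libraries, 1.18-fold (1.17 to 1.19), and 1.17-fold (1.15 to 1.19) between Zscan4-high and Zscan4-0 cells. Between the libraries 0 of its 16 members were past 2-fold, against 18.3% of features higher and 2.48% lower. By Zscan4 it was 0 of 15, against 9.48% and 6.23% of features. A ratio above 1 was found for 14 of 16 and 12 of 15, against 67.6% and 43.5% of features.

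The chromosome 7 group had the highest summed ratios, 141.1 against 78.3 CPM between the libraries (1.80-fold, 1.76 to 1.84) and 1.93-fold (1.86 to 2.00) by Zscan4, although Zfp975 was level in both. The chromosome 17 group stood at 77.8 and 47.7 CPM (1.63-fold, 1.58 to 1.68) and at 1.43-fold (1.36 to 1.51) by Zscan4, with a ratio above 1 for 10 of 10 members between the libraries and for 9 of 10 by Zscan4, where 67.6% and 43.5% of all features had one. The chromosome 2 group stood at 21.1 and 20.9 CPM (1.01-fold, 0.960 to 1.06), with Zfp968 as its 1 member past 2-fold.

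The chromosome 13 group was 1.17-fold higher between the libraries and 1.39-fold higher by Zscan4, with 2 and 1 of its 3 members above a ratio of 1. Between the libraries Zfp997 (8.05 and 4.68 CPM) and Zfp953 (3.89 CPM in the positive library, log2 ratio 0.53) were both higher in the positive library, and Zfp998 was not (11.7 and 12.8 CPM). By Zscan4 Zfp997 was higher, while Zscan4-high cells stood at a log2 ratio of -0.06 for Zfp998 (11.6 and 12.05 CPM) and of -0.48 for Zfp953 (3.07 and 4.27 CPM) against Zscan4-0 cells. The chromosome 8 group stood at 1.11-fold and 0.995-fold (0.865 to 1.14). The 21 isolated members summed to 269.0 and 222.8 CPM (1.21-fold). With TMM the summed log2 ratio between the libraries stayed above 0 for the chromosome 7 (0.56) and chromosome 17 (0.41) groups and fell below 0 for the chromosome 4 (-0.05), chromosome 13 (-0.06), chromosome 8 (-0.15) and chromosome 2 (-0.28) groups and the isolated members (-0.02).

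**Figure D4:**
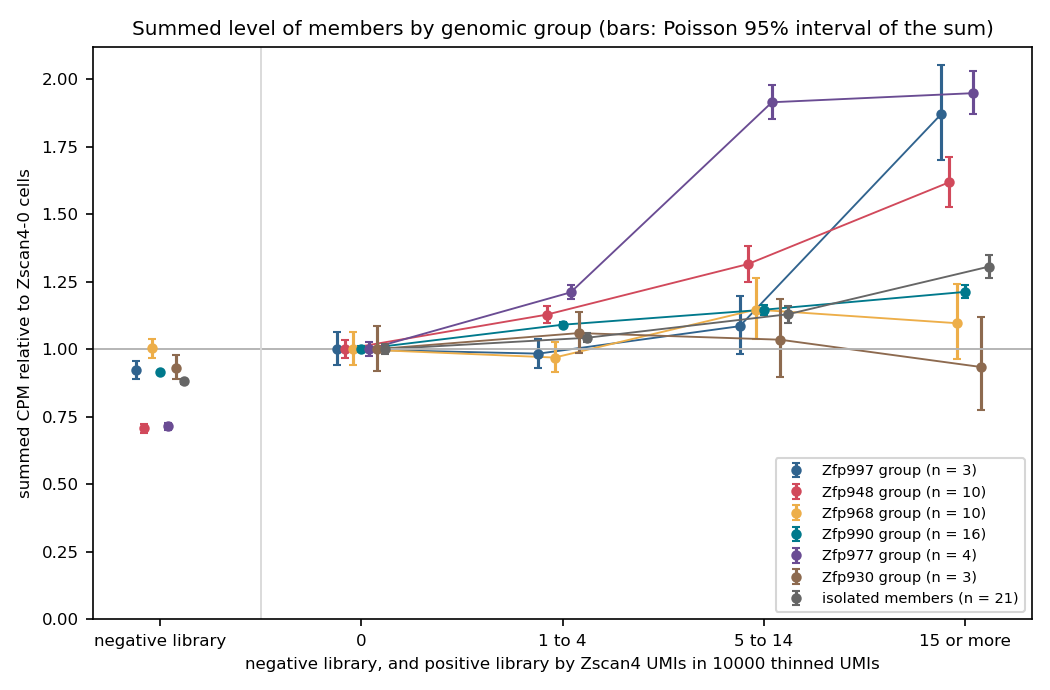
Summed CPM of the members of each genomic group relative to the Zscan4-0 cells of the positive library, in the negative library (left of the line) and over the 4 Zscan4 classes, with Poisson 95% intervals of each sum. The Zfp977 group (chromosome 7), the Zfp997 group (chromosome 13) and the Zfp948 group (chromosome 17) reach the highest values, and the Zfp930 group (chromosome 8) stays near 1.

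The third comparison asked how far the libraries differed outside Zscan4-positive cells, and set the Zscan4-0 cells of the positive library against all cells of the negative library. Before thinning, Zscan4 stood at 48.0 CPM in the Zscan4-0 cells, at 3652 CPM in the top class and at 0.812 CPM in the negative library; whether the 48.0 CPM is these cells' own RNA or free RNA of other cells was not tested. Of 62 members, 1 was higher (Zfp968, at 0.985 and 0.345 CPM, 2.85-fold, 1.89 to 4.29) and 0 were lower, against 12.0% and 1.6% of 17540 features. The median log2 ratio was 0.21, close to the 0.23 of all features. It was -0.10 with TMM and -0.020 with the median of ratios, where the median of all features was -0.08 and 0.00. Marker lists also differed here: 12 of 16 endoderm genes (median log2 ratio 1.28), 5 of 8 trophoblast genes (1.37), 3 of 7 fibroblast genes (0.80) and 15 of 16 genes of the 2C-like list (6.46) were higher. Without cells that held at least 5 thinned endoderm list UMIs, which left 765 and 3357 cells, 3 of 62 members were higher and 1 lower, against 9.92% and 1.695% of features.

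Zfp977 stood 1.66-fold (1.55 to 1.79) above the negative library already in Zscan4-0 cells, and Zfp974 0.651-fold (0.519 to 0.810). Zfp990 stood at 1.04-fold (1.02 to 1.06) and Zfp975 at a log2 ratio of 0.0030 (ratio interval 0.919 to 1.09). The 3 comparisons share cells, so their values for a member are set side by side and are not independent of each other.

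Sequence shared with other genes could move reads between members, since how reads with several matches were counted is not given. Of the 63 members, 18 had at most 5% of their 50-base words in other annotated genes. Their median log2 ratio between the libraries was 0.45, with 4 of 18 higher (Zfp949, Zfp950, Zfp954 and Zfp946). For 28 members with 5 to 50% it was 0.33 with 3 higher, and for 17 members with over 50% it was 0.38 with 1 higher. Over all features 18.3% were higher between the libraries. Between Zscan4-high and Zscan4-0 cells the medians were 0.62 for 17 members, 0.20 for 28 and 0.26 for 14, with 2, 5 and 2 higher. Over all features 9.48% were higher by Zscan4. The members with the least shared sequence had the highest median in both comparisons, but not the largest share of members past 2-fold by Zscan4; these differences were not tested.

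**Figure D5:**
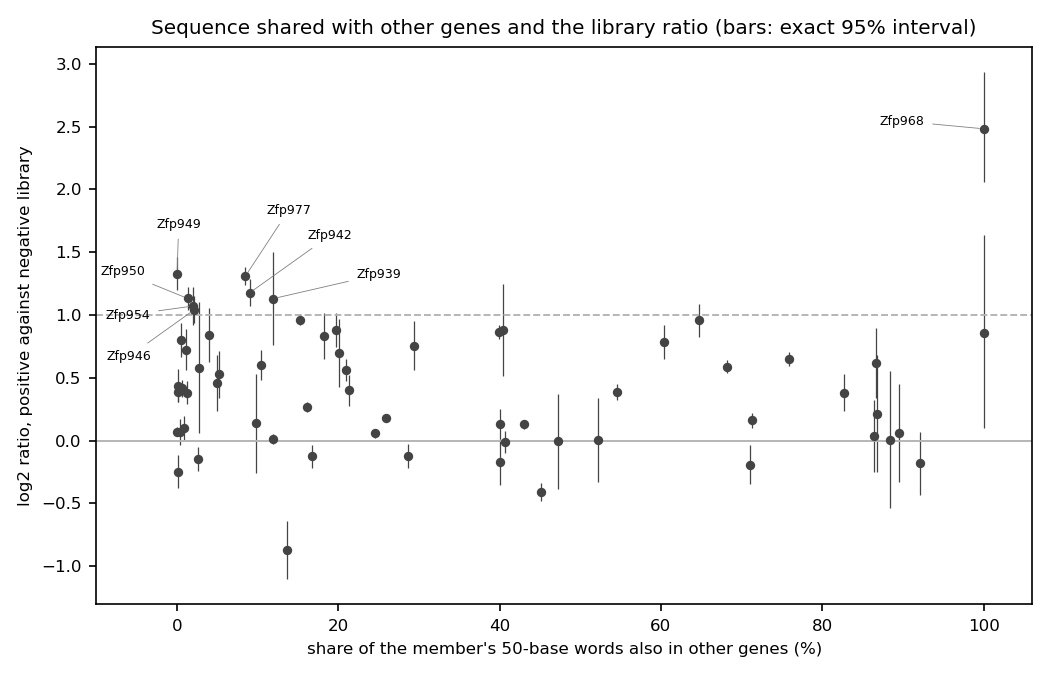
Log2 ratio of CPM between the positive and the negative library against the share of the member's 50-base words that also occur in other annotated genes, for 63 members, with exact 95% intervals; the members past 2-fold (dashed line) are named. Of the named members, 7 lie at 11.9% or below and Zfp968 lies at 100%.

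The TRIM28 pathway was described from a list of 28 genes, which holds partners of KRAB zinc finger proteins and also some KRAB zinc finger genes outside the numbers 900 to 999, Zfp809 and Zfp819 among them. Between the libraries 2 of 27 were higher (7.41%) and 0 lower, with a median log2 ratio of -0.03, against 18.3% and 2.48% of all features and their median of 0.26. They were Zfp809, a KRAB zinc finger protein that silences murine leukaemia virus (82.4 and 11.4 CPM, log2 2.85), and Atf7ip, a partner of SETDB1 (66.2 and 30.4 CPM, log2 1.12). With TMM Atf7ip came to a log2 ratio of 0.83 and no longer passed, Zfp819, another KRAB zinc finger gene, passed as lower at -1.04, and the list's median was -0.32. Trim28, the corepressor itself, stood at 765.9 and 389.7 CPM (log2 0.97), and Setdb1 at 62.7 and 51.0 CPM (log2 0.30); with TMM they came to 0.68 and 0.0038. The heterochromatin proteins ran the other way, with Cbx1 at -0.30, Cbx3 at -0.60 and Cbx5 at -0.29 on the log2 scale.

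Between Zscan4-high and Zscan4-0 cells 1 of 27 was higher, Zfp809 (202.3 and 38.5 CPM, log2 2.39), and 1 was lower, Zfp819 (0.678 and 2.22 CPM, log2 -1.71), against 9.48% and 6.23% of features; the list's median was -0.21 against -0.08. Trim28 stood at 878.9 and 695.1 CPM (log2 0.34) and Setdb1 at 70.4 and 58.8 CPM (log2 0.26). No member of the Zfp900 to Zfp999 series reached the ratio of Zfp809 in either comparison.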

How the data were processed

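Single-cell expression was analysed in 2 libraries. The authors deposited raw counts per gene and cell; per the submitters' processing notes, FastQC 0.11.2, Trim Galore 0.6.4, STAR 2.7.6a and mm10 were used. The annotation, the counting of molecules and the calling of cells are not given in the sources used here. The labels' extraction text describes kits of a bulk kind and no single-cell capture; counts are read as UMIs. The members and all lists were chosen with earlier results of these data known.

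Cells with at least 1000 UMIs, 500 genes and at most 20% mitochondrial UMIs were kept (4596 of 4603 and 3832 of 3832), which left 138303336 and 156406894 UMIs. Doublets were not called; values without cells above 2 times the median depth were computed. UMIs were summed, scaled to CPM and compared as ratios, with at least 50 UMIs over both sides; a side at 0 was set to 3 UMIs. Sums have exact Poisson intervals, ratios exact conditional and shares exact binomial (Clopper-Pearson) intervals at 95%. Named members are those counted as higher or lower and the 5 with the highest summed CPM; others named were chosen after their values were seen. Alternatives changed the cell filter, scaling, thresholds, pseudocount, thinning, classes and members. The steps were tested on simulated data. edgeR 4.0.16 under R 4.3.3 gave the TMM factors; everything else ran in Python 3.11.15 with pandas 2.3.3, scipy 1.17.1 and numpy 2.4.6.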

Additional observations from a re-analysis of the deposited data

How the results depend on the processing

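Of 144 recomputed counts and medians, 104 stayed within 1.5 times the reported count or within the interval of the reported median. No paired analysis was possible because both groups consist of 1 library, and no library could be left out for the same reason. The cause of the changes below was not tested, except where fewer members were counted or the threshold itself was moved.

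Between the libraries (8 higher, 0 lower, median 0.40), 3 were higher and 1 lower under TMM (median 0.11) and under median of ratios (median 0.15). The feature shares were 13.2% higher and 5.68% lower under TMM, and 13.8% and 5.10% under median of ratios. By the mean of each cell's CPM 13 were higher (features 19.1%), and with CPM + 1 it was 5 (features 6.43%). At 1.5-fold 25 were higher and 1 lower (features 31.8% and 7.66%). At 4-fold 1 was higher, and the members' 1.59% lies below the features' 7.18%. By Zscan4 (9 higher, 1 lower), 5 were higher and 0 lower with at least 200 UMIs (features 7.54% and 3.97%), 20 higher and 2 lower at 1.5-fold (16.1% and 16.7%), and 1 higher and 0 lower at 4-fold (3.69% and 0.480%), where the members' 1.69% higher lies below the features' share. There 0 were lower with CPM + 1, with thinned UMIs only and with thinning to 5000 (features 2.17%, 5.71% and 6.62%). With Zscan4-high from 2, 3 were higher and 0 lower (features 7.17% and 2.09%), and from 15 it was 14 higher (features 11.1%). With classes from GFP 0 were higher and 0 lower (features 4.27% and 1.27%). For Zscan4-0 cells against the negative library (1 higher, 0 lower, median 0.21), the median reversed to -0.10 with TMM and to -0.020 with the median of ratios. There 2 were higher by the mean of each cell's CPM, with a minimum of 1 UMI, with classes from GFP and without cells holding 3 thinned UMIs of 6 endoderm regulators. In that order 12.1%, 20.6%, 14.1% and 12.1% of features were higher. 0 were higher with at least 200 UMIs, at 4-fold, with CPM + 1 and without members sharing over 50% of their words. The feature shares there were 7.01%, 3.30%, 4.17% and 12.0%. At 1.5-fold 14 of 62 were higher (22.6%, below the features' 25.1%) and 1 lower (features 5.47%). With thinned UMIs only 3 of 55 were higher (features 8.16%). Without cells holding 5 thinned endoderm list UMIs 3 were higher and 1 lower (features 9.92% and 1.695%), a limit that left 765 Zscan4-0 cells. The settings with the endoderm regulators, the shared words and the depth limit were chosen after seeing the data.

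Of 234 recomputed values of single members, 192 stayed within their counting interval and none of the called ones changed sign. The scalings could not have changed one, since they moved log2 ratios by at most 0.31, less than a 2-fold ratio. Members under 1 CPM rest on few UMIs: for Zfp983, with 25 and 29 UMIs, a ratio of 2.02 has an interval from 1.14 to 3.59.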
